A study of Mus musculus with 4 samples.

Results

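Zebrin stripe genes were followed in laser-captured Purkinje cells of the mouse cerebellum. They comprised 8 genes, Aldoc, Plcb1, Plcb2, Plcb3, Plcb4, Slc1a6, Sphk1 and Hspb1, which are known to follow or oppose the zebrin II stripes or are paralogs of genes that do. Members were all probe sets whose platform annotation names exactly 1 of these genes, 19 probe sets of 45037 that were not Affymetrix controls. All samples came from male C57BL/6J mice at 8 weeks of age. They form 1 group of 4, with 2 samples per animal and 2 animals, called 1-1, 1-2, 2-1 and 2-2 by animal and sample. The labels give no transgene, no treatment and no position of the captured cells within the cerebellum, and do not say whether samples of the same animal were separate captures, so p-values measure only the spread between these samples. Samples of the granule cell layer, which the design text mentions, were not analysed here.

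Purkinje cells, whose inhibitory axons carry the output of the cerebellar cortex, look alike under the microscope but form parasagittal stripes that differ in their proteins. Zebrin-positive stripes carry aldolase C, the glycolytic enzyme that is the zebrin II antigen, together with the glutamate transporter EAAT4, phospholipase C beta 3 and sphingosine kinase 1, while zebrin-negative stripes carry phospholipase C beta 4. Phospholipase C beta enzymes act below the G protein Gq, where they split a membrane lipid into IP3, which releases stored calcium, and diacylglycerol. The small heat shock protein encoded by Hspb1 marks subsets of Purkinje cells in its own pattern of bands. Each sample pooled captured cells and carries no stripe label, so stripes were not separated, and a smaller share of cells of a stripe cannot be told apart from less RNA per cell.

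Promoter windows from RefSeq of assembly GRCm38.p6 were matched for 8 of 8 genes. The 250 bases before the most upstream listed start are shown for the 3 genes of zebrin-positive stripes and the gene of zebrin-negative stripes that are compared within each array further on, 5′ to 3′ on the gene's strand. Capitals mark matches on either strand to GGGCGG, the core of the Sp1 GC box, to AGGTCA, a core letter run of sites for ROR and other nuclear receptors, and to CACGTG, an E box.
Aldoc (chr11:78322823-78323072, forward strand): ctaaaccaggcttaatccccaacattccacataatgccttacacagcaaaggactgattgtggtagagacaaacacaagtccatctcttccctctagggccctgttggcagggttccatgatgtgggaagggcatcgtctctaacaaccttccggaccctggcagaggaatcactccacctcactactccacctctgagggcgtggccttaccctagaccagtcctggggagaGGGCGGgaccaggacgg
Slc1a6 (chr10:78780246-78780495, forward strand): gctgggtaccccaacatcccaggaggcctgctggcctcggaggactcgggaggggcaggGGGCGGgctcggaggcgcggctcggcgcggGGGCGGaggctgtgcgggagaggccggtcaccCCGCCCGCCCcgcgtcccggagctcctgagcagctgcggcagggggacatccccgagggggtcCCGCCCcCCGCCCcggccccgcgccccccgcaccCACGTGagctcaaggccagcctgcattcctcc
Plcb3 (chr19:6969815-6970064, reverse strand): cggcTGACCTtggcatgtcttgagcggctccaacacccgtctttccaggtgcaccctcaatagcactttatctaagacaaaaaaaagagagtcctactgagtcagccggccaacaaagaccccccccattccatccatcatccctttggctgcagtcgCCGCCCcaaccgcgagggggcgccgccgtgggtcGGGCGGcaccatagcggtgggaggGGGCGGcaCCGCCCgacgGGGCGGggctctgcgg
Plcb4 (chr2:135659297-135659546, forward strand): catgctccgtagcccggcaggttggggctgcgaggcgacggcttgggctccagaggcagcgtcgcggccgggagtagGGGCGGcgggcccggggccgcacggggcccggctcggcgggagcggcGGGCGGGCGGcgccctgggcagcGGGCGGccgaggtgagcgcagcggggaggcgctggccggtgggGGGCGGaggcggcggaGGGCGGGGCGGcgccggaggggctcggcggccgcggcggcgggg

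The GC box letters occurred once in the Aldoc window, 6 times in that of Slc1a6, 5 times in that of Plcb3 and 7 times in that of Plcb4, counting overlapping matches. The windows were 55.2%, 78.8%, 64.4% and 85.2% G or C in that order, against a median of 52.4% over all windows of the table. The nuclear receptor letters occurred once, in the Plcb3 window, and the E box once, in the Slc1a6 window. Over the 14 windows of the 8 genes, some of which overlap, GGGCGG was found in 6, AGGTCA in 3, CACGTG in 3 and the TATA box core TATAAA in 1. The shares over all 32851 windows were 32.7%, 14%, 6.02% and 12.4% in that order. Counted by gene, AGGTCA and CACGTG were each found in 2 genes, because overlapping windows of Sphk1 hold the same sites. The letters CCCNNGGGA, the core of the motif bound by EBF factors such as Ebf2, were in none of the 14 windows and in 5.6% of all windows. For Aldoc and Plcb4 the table lists a further downstream start each, whose windows hold none of these letters.

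The arrays carried different overall brightness. The median deposited signal was 8.4 to 11.4 and the mean signal after trimming 2% at each end was 55.8 to 87.6, both lowest in sample 1-1 and highest in 2-2, so quantile-normalized log2 signals were used beside the deposited signals. A background bound was set on each array at the 95th percentile of 77 genes of organs other than brain, which gave 5.74 to 6.11 on the log2 scale. Purkinje cell markers lay above the bound on all 4 arrays in 18 of 19 cases. Bergmann glia and astrocyte markers did so in 12 of 16 cases, granule cell markers in 5 of 14, oligodendrocyte markers in 3 of 12, interneuron markers in 3 of 13, vascular markers in 2 of 12 and microglia markers in 1 of 10. With 4 arrays the precision of each value is limited.

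Of the 8 genes, 6 lay above the bound on all 4 arrays by their brightest probe set, namely Aldoc, Slc1a6, Plcb3, Plcb4, Plcb1 and Hspb1, against 27.2% of all 18193 named genes. Sphk1 passed on 2 arrays and Plcb2 on none. Counted by probe set, 8 of 19 passed everywhere, 3 passed on some arrays and 8 did not pass at all, against 19.6% of the 34945 probe sets with 1 gene symbol that passed on all 4. Plcb1 and Plcb4 had 5 probe sets each, of which 1 each passed on all 4 arrays, so their place among the 6 genes rests on the brightest of several. With the median over a gene's probe sets in its place, 4 genes stood above the bound on every array, Aldoc, Plcb3, Slc1a6 and Hspb1.

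**Figure D1:**
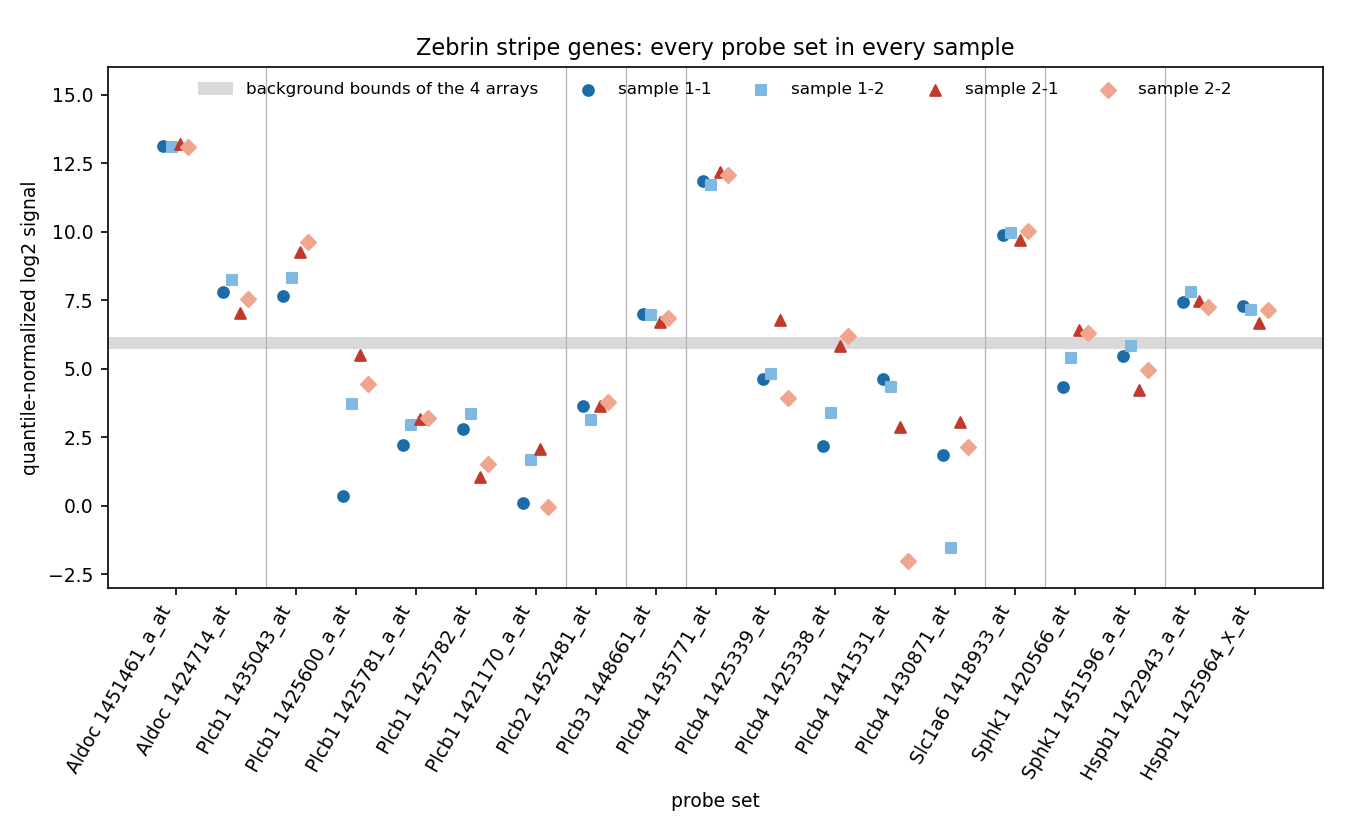
Quantile-normalized log2 signal (vertical axis) of the 19 probe sets (horizontal axis, grouped by gene) in each of the 4 samples, with the grey band spanning the background bounds of the arrays from 5.74 to 6.11. The brightest probe sets of Aldoc, Plcb4 and Slc1a6 stand far above the band with their 4 samples close together, while the dim probe sets of Plcb1 and Plcb4 lie mostly below it and scatter widely.

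Aldoc, the zebrin II gene itself, gave deposited signals of 7526, 7653, 10617 and 10552 in samples 1-1, 1-2, 2-1 and 2-2 on probe set 1451461_a_at. On the normalized log2 scale these were 13.12, 13.10, 13.20 and 13.10, a mean of 13.13 ± 0.03 (SD, n = 2 animals). The deposited signals were higher in both samples of animal 2, and after normalization the samples of the animals overlapped. A second probe set, 1424714_at, annotated to the same cDNA record, gave signals of 183, 253, 148 and 252. Its log2 values were 7.80, 8.24, 7.05 and 7.56, with both samples of animal 2 below both of animal 1, and it also passed the bound on all 4 arrays. Probe sets differ in how they respond to the same RNA, so the gap between the 2 probe sets cannot be read as a difference in transcript amount.

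Aldoc is also expressed by astrocytes, whose markers were present in the captures. The summed deposited signal of the 16 Bergmann glia and astrocyte markers was 12915 to 13096 in animal 1 and 14156 to 15495 in animal 2, where the arrays were brighter throughout. After normalization the median log2 difference over their 23 tested probe sets was -0.18, against -0.05 over all probe sets tested. Of the 23, limma called 0 and 9 had an unadjusted p under 0.05, against 0.408% and 18.1% of all. Of the 12 markers above the bound on all 4 arrays, only Fabp7 (0.57), Glul (0.56) and Hopx (0.06) were higher in animal 2 by their brightest probe sets. The others were lower, from -0.04 for S100b to -1.18 for Tril, with Gja1 at -0.57. Of the defining genes of these cell types, Gja1 was at 11.72 ± 0.40 and Hopx at 11.58 ± 0.04 (SD, n = 2 animals), while Slc6a11 and Hes5 lay below the bound on every array. The part of glial RNA in the Aldoc signal was not tested. Among the paralogs, Aldoa, the muscle-type aldolase, lay above the bound on all 4 arrays at 10.86 ± 0.01, and the testis genes Aldoart1 and Aldoart2 on none.

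Slc1a6, which encodes EAAT4, the glutamate transporter of Purkinje cell spines, had 1 probe set with deposited signals of 794, 855, 898 and 1337. Its log2 values were 9.88, 9.95, 9.70 and 10.04, a mean of 9.89 ± 0.03 (SD, n = 2 animals). The values of animal 1 lay between those of animal 2, so the animals overlapped. Of the 6 paralogs measured, the glial transporter genes Slc1a3 and Slc1a2 lay above the bound on all 4 arrays, at 10.37 ± 0.12 and 7.88 ± 0.06. Slc1a4, a neutral amino acid transporter gene, passed on 3 arrays, and Slc1a1, Slc1a5 and Slc1a7 on none.

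Plcb3, the phospholipase C beta gene of zebrin-positive stripes, had 1 probe set with deposited signals of 103, 102, 117 and 156. Its log2 values of 6.99, 6.96, 6.72 and 6.85 exceeded the bound by 0.82 to 1.13 on each array, the smallest margins among the probe sets that passed everywhere apart from 0.76 for 1 probe set of Hspb1 in sample 2-1. Both samples of animal 2 lay below both of animal 1 after normalization, and above them as deposited. With the bound at the 99th percentile of the background genes, Plcb3 passed on 3 arrays, which left 5 genes passing on all 4.

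Plcb4, the phospholipase C beta gene of zebrin-negative stripes, gave deposited signals of 3199, 2919, 4901 and 5391 on its brightest probe set, 1435771_at. The log2 values were 11.85, 11.70, 12.17 and 12.06, a mean of 11.95 ± 0.24 (SD, n = 2 animals), with both samples of animal 2 above both of animal 1. The other 4 probe sets of Plcb4 were dim and went different ways. Probe set 1425338_at had signals of 4.10, 9.40, 62.9 and 99.1 and passed the bound in sample 2-2 only. Probe set 1441531_at had signals of 21.5, 18.2, 7.5 and 0.3 and passed nowhere. Both separated the animals after normalization, in opposite directions. Probe set 1425339_at stood at 18.8 to 24.4 in 3 samples and at 121 in sample 2-1, the only array on which it passed. Probe set 1430871_at ranged from 0.3 to 8.5 with animal 2 higher and passed nowhere.

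Plcb1, the phospholipase C beta gene best known from the forebrain, gave deposited signals of 164, 264, 673 and 1010 on probe set 1435043_at. The log2 values were 7.65, 8.30, 9.27 and 9.61, all above the bound, with both samples of animal 2 above both of animal 1. Its other 4 probe sets stayed below the bound on every array. Among these, 1425600_a_at ranged from 1.10 in sample 1-1 to 48.5 in 2-1, and 1425781_a_at from 4.2 to 11.2, both with animal 2 above animal 1. Probe set 1425782_at, at 2.00 to 9.10, had both samples of animal 2 below animal 1, and 1421170_a_at, at 0.9 to 4, overlapped. Plcb2, the paralog best known from blood and taste cells, had 1 probe set with signals of 11.3, 7.90, 12.5 and 16.8, below the bound by 1.97 or more on the log2 scale on each array.

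Sphk1, the kinase that makes sphingosine 1-phosphate, gave deposited signals of 17.9, 35.5, 93.4 and 108 on probe set 1420566_at. It passed the bound on both arrays of animal 2 and on neither of animal 1. The other probe set, 1451596_a_at, had signals of 36.4, 47.0, 18.5 and 40.8 and passed on no array, with a margin of 0 when rounded to 2 decimals in sample 1-2. Its normalized values were lower in both samples of animal 2, so the probe sets of this gene went opposite ways. With the bound at the 90th percentile of the background genes, 1451596_a_at passed on all 4 arrays and 1420566_at on 3.

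Hspb1, which encodes a small heat shock protein, passed the bound with both of its probe sets. Probe set 1422943_a_at had deposited signals of 140, 185, 198 and 205 and log2 values of 7.43, 7.81, 7.47 and 7.25. Probe set 1425964_x_at, of a type whose probes can bind related transcripts, had signals of 126, 115, 113 and 192 and log2 values of 7.28, 7.14, 6.66 and 7.15. The animals overlapped on both. Of 8 other small heat shock protein genes, Cryab lay above the bound on all 4 arrays at 8.23 ± 0.62 (SD, n = 2 animals), Hspb3 on 3, and the other 6 on none.

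The animals carry the same labels, and the comparison of animal 2 with animal 1 asked how far samples of the same kind of mouse differ for these genes. A linear model was fitted in limma across the 10535 probe sets that passed the bound on 2 arrays or more, with Benjamini-Hochberg adjustment over all of them. Of the 19 probe sets 9 were tested, and 0 of these 9 were called at a false discovery rate of 0.05, against 0.408% (43) of all probe sets tested. At an unadjusted p under 0.05 there were 2 of 9, against 18.1% of all. Both samples of animal 2 lay above both of animal 1 for 3 of the 9 and below for 2, against 23.9% and 25.7% of all probe sets tested. Among the 3 is Sphk1 on 1420566_at, which entered the fit only through the arrays of animal 2, so its direction was set by the filter. The median absolute difference was 0.30 over the 9, against 0.41 over all probe sets tested. Without Sphk1, 2 of 8 lay above and 2 below, and the median absolute difference was 0.28. The values over all probe sets still include those that passed in a single animal, so these 8 cannot be set against them. These counts describe the tested members only.

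Plcb1 (1435043_at) was brighter in animal 2, with a log2 difference of 1.46 ± 0.31 (limma, ± SE here and for each difference that follows, 2 samples per animal, 95% interval 0.73 to 2.19, adjusted p = 0.1). This is a ratio of 2.75 that did not pass the threshold after adjustment. It was called without sample 2-1 (1.65 ± 0.33, adjusted p = 0.0359), when 7.43% of all probe sets were called. Plcb4 (1435771_at) was higher by 0.34 ± 0.09 (limma, 95% interval 0.13 to 0.55, adjusted p = 0.141). Sphk1 (1420566_at) differed by 1.5 ± 0.70 (limma, 95% interval -0.16 to 3.16, adjusted p = 0.317), which the filter favours as described. With all 4 samples and quantile-normalized values none of these 3 differences passed the adjusted threshold.

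The remaining 6 tested probe sets had intervals that include 0. Aldoc differed by 0.04 ± 0.05 on 1451461_a_at (95% interval -0.08 to 0.16) and by -0.72 ± 0.35 on 1424714_at (95% interval -1.56 to 0.12). Slc1a6 differed by -0.05 ± 0.19, with an interval from -0.49 to 0.40, and Plcb3 by -0.19 ± 0.37, with an interval from -1.06 to 0.69. Hspb1 differed by -0.26 ± 0.33 and -0.30 ± 0.37 on its 2 probe sets. The adjusted p in limma was 0.340 for 1424714_at and 0.719 to 0.925 for the other 5. The interval of the bright Aldoc probe set is the narrowest and those of Plcb3 and Hspb1 leave room for differences near 1 on the log2 scale.

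Without normalization the median probe set in the test was brighter in animal 2 by 0.48, and the fit called 3 of the 9 member probe sets, against 6.02% of all. They were Plcb1 by 1.99 ± 0.35 (limma, adjusted p = 0.0289), Plcb4 by 0.75 ± 0.13 (adjusted p = 0.0270) and Aldoc on 1451461_a_at by 0.48 ± 0.08 (adjusted p = 0.0280). Relative to that median shift, Plcb1 was higher by 1.51, Plcb4 by 0.27 and Aldoc by 0. On that scale the signs of Slc1a6, Plcb3 and both probe sets of Hspb1 turned to higher in animal 2.

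**Figure D2:**
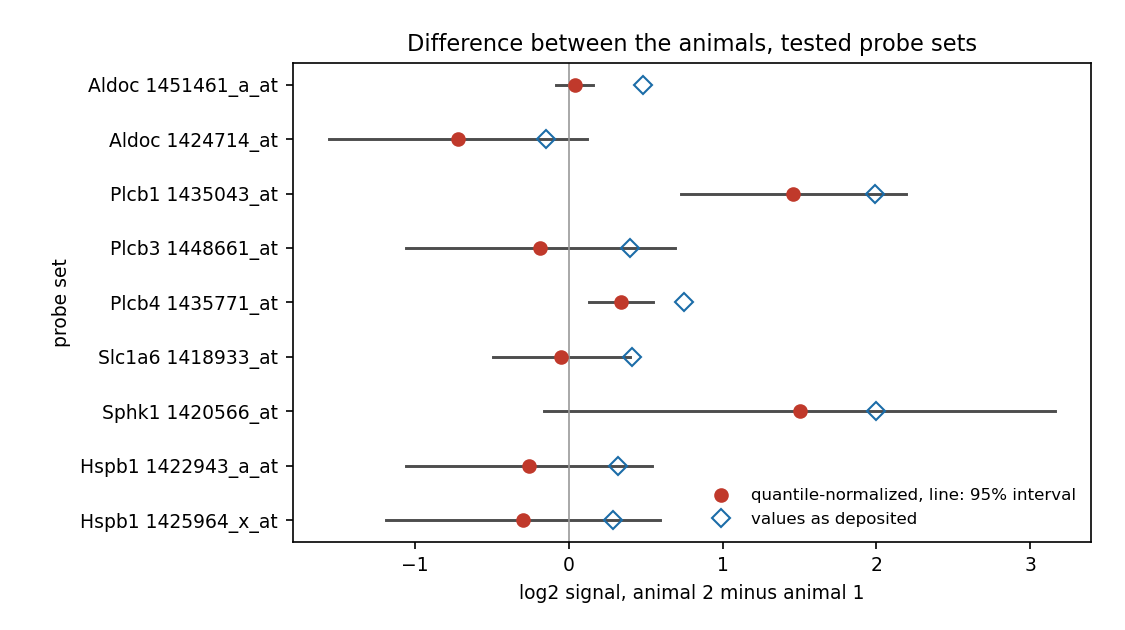
Difference in log2 signal, animal 2 minus animal 1 (horizontal axis), of the 9 tested probe sets (vertical axis). Filled circles with 95% intervals are quantile-normalized values and open diamonds are values as deposited, which lie to the right of the circles in every case. The intervals of Plcb1 and Plcb4 exclude 0 before adjustment for the number of probe sets, and the other 7 include it.

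Markers of cell types other than Purkinje cells were compared in the same fit, in which 0.408% of all probe sets were called and 18.1% had an unadjusted p under 0.05. The 14 granule cell markers summed to 3972 and 4798 in deposited signal in animal 1 and to 2390 and 3107 in animal 2. Their 13 tested probe sets had a median log2 difference of -1.29, against -0.05 over all probe sets tested, with 10 at an unadjusted p under 0.05 and 1 called, Zic1 by -1.29 ± 0.18 (limma, adjusted p = 0.0492). Slc17a7, Pax6 and Fat2 did not pass on any array. Median differences were 0.15 over 8 oligodendrocyte probe sets, 0.58 over 6 of interneurons and -0.69 over 4 of vascular cells, and the single microglia probe set tested differed by -1.46, with 0 called in limma in these lists and 3, 3, 2 and 1 at an unadjusted p under 0.05. By their brightest probe sets, Npy and Nxph1 of the interneuron list, Calb2 of the granule cell list and Gfap of the glial list passed the bound on 2 arrays each. The filter can favour the direction of such probe sets, as for Sphk1, and they remain in these counts and in those of the 23 glial probe sets given earlier. Plcb1 and Plcb4 were higher in animal 2, as were the medians of the oligodendrocyte and interneuron probe sets. The interneuron list includes Prkcd (0.67 by its brightest probe set), which is also among the stripe genes given further on. The granule cell and vascular medians and the microglia probe set were lower. The 19 Purkinje cell markers had a median difference of 0.18 over 35 probe sets. Of these 35, 21 had an unadjusted p under 0.05 in limma, 2 were called higher in animal 2 and 1 lower. The calls were Pcp2 at 0.57 ± 0.07 (limma, adjusted p = 0.0401), Icmt at 1.3 ± 0.14 (adjusted p = 0.0362) and Calb1 at -0.88 ± 0.10 on 1448738_at (adjusted p = 0.0362), while the brightest probe set of Calb1 differed by 0. Of 9 alternatives to this fit the calls were lost in 5 for Zic1, 5 for Pcp2, 5 for Calb1 and 4 for Icmt, among them those without sample 1-1 (adjusted p = 0.254, 0.131, 0.341 and 0.254) and without sample 1-2 (0.456, 0.0734, 0.32 and 0.232), all in limma. The part of cell mixture in the differences of the stripe genes was not tested.

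Genes of opposite stripes were then set against each other within each array, as the log2 signal of Aldoc, Slc1a6 or Plcb3 minus that of Plcb4. Each gene entered by its brightest probe set. The size of such a difference depends on the probe sets, so only its change between samples is described, with no test. The change depends on the probe set too. The second Aldoc probe set, 1424714_at, passed on all 4 arrays and differed by -0.72 between the animals, against 0.04 for the one used here. Samples 1-1, 1-2, 2-1 and 2-2 gave 1.27, 1.4, 1.03 and 1.04 for Aldoc, -1.97, -1.75, -2.46 and -2.03 for Slc1a6, and -4.85, -4.75, -5.44 and -5.21 for Plcb3. In each case both samples of animal 2 lay below both of animal 1. Single probe sets did so in 25.7% of all those tested, and no such share was computed for differences of 2 probe sets. Taken alone, Aldoc and Slc1a6 overlapped between the animals, while Plcb4 separated them. The change from animal 1 to animal 2 was -0.30 for Aldoc, with a spread within animals of 0.06 (SD), -0.39 for Slc1a6, with a spread of 0.24, and -0.53 for Plcb3, with a spread of 0.13. For Slc1a6 the change was -0.18 without sample 2-1 and -0.60 without 2-2. The 3 differences share the Plcb4 value, which was higher in animal 2, so their common direction counts once. With 2 samples per animal an exact permutation test cannot go below p = 0.333.

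**Figure D3:**
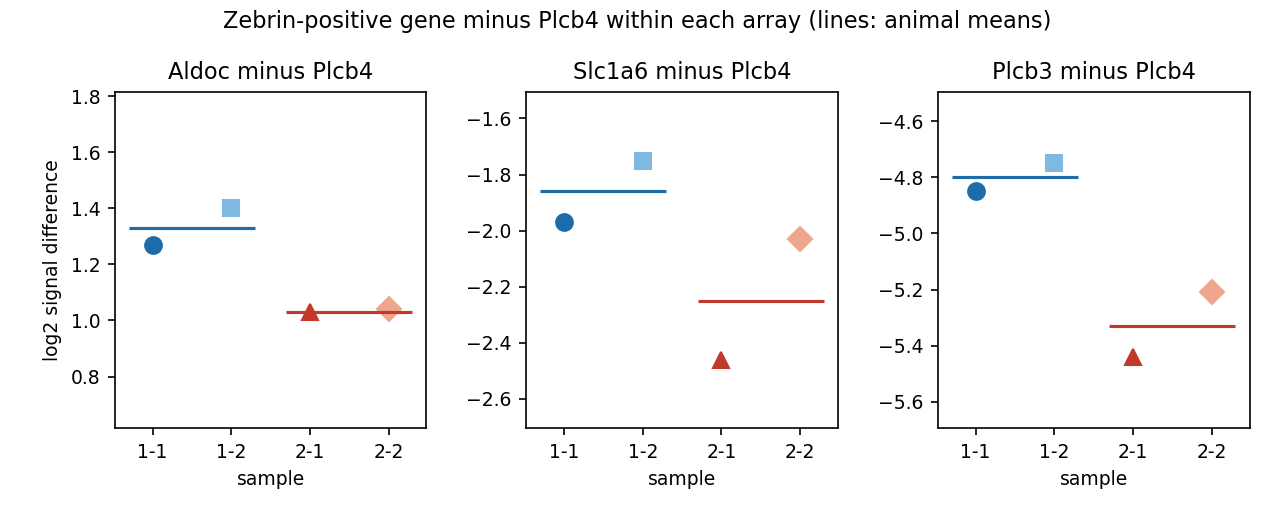
Log2 signal of Aldoc, Slc1a6 and Plcb3 minus that of Plcb4 on the same array (vertical axis) in each sample (horizontal axis), with lines at the animal means; each panel spans the same range of 1.2 on the log2 scale. Samples of animal 2 lie below those of animal 1 in every panel, by 0.30 to 0.53 between the means. The panels share the Plcb4 value, which was higher in animal 2.

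Other genes known from the stripes were measured less fully. Of 9 such genes measured, 4 lay above the bound on all 4 arrays. These were Inpp5a, an inositol phosphatase, at 10.80 ± 0.33, the scaffold gene Pick1 at 7.36 ± 0.39, Ebf2, a transcription factor of zebrin-negative stripes, at 7.11 ± 0.23, and Prkcd, a protein kinase C, at 6.87 ± 0.47 (SD, n = 2 animals). Prkcd is also in the interneuron list. Nt5e passed on 3 arrays, Map1a and Ncs1 on 2, Ngfr on 1 and Nrgn on none. Of their 7 probe sets tested between the animals limma called 0, with 1 at an unadjusted p under 0.05 and a median difference of 0.47. Over all probe sets 0.408% were called and 18.1% had such a p, with a median of -0.05.

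In the pathway from Gq through phospholipase C beta to the calcium store, 15 of 17 measured genes lay above the bound on all 4 arrays. In the order of their signals, which is not an order of transcript amounts, they included the diacylglycerol kinase Dgkz at 13.06 ± 0.23, Rgs8, which speeds the return of G proteins to rest, at 11.51 ± 0.40, and the Gq subunit Gnaq at 10.67 ± 0.36, beside Inpp5a. The IP3 kinase Itpka stood at 9.50 ± 0.09 and Dagla, which makes an endocannabinoid from diacylglycerol, at 9.37 ± 0.55. Mgll, which degrades that endocannabinoid, and the calcium channel Orai1 lay below the bound on every array. Of 26 probe sets of these genes limma called 0 between the animals, with 8 at an unadjusted p under 0.05 and a median difference of 0.25, against 0.408%, 18.1% and -0.05 over all probe sets tested. Beyond the beta family, 3 of 14 other phospholipase C genes passed on all 4 arrays, Plcxd2 at 10.39 ± 0.77, Plce1 at 6.75 ± 0.28 and Plcg1 at 6.60 ± 0.03. Over the 6 tested probe sets of that list the median difference was -0.75, and 3 had an unadjusted p under 0.05 in limma, against -0.05 and 18.1% over all. Plcd3, among the 6, passed the bound on 2 arrays and had its higher signals in animal 2, which the filter favours, as for Sphk1. Plcxd2 differed by -1.09 ± 0.15, lower in animal 2 (limma, adjusted p = 0.0491), the only call among the 6. The call was lost in 6 of 9 alternatives, among them those without sample 1-1 (adjusted p = 0.394) and without 1-2 (adjusted p = 0.467).

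Around Sphk1, 6 of 17 genes of sphingolipid metabolism and signalling lay above the bound on all 4 arrays. They were the desaturase Degs1 at 11.39 ± 0.18, the phosphatases Sgpp2 and Sgpp1 at 10.10 ± 0.67 and 8.56 ± 0.12, the ceramidase Asah1 at 8.73 ± 0.37, the transporter Spns2 at 8.22 ± 0.32 and the synthase subunit Sptlc1 at 6.71 ± 0.50 (SD, n = 2 animals). The sister kinase Sphk2 passed on 3 arrays and the receptor S1pr1 on 2, those of animal 2, while Sgpl1, the lyase, passed on none. Of 13 probe sets of this list tested between the animals limma called 0, with 2 at an unadjusted p under 0.05, against 0.408% and 18.1% over all probe sets tested. Among the 13 are S1pr1, Acer3 and Sptlc2, which passed on 2 arrays each and had their higher signals in animal 2. The filter favours their direction, as for Sphk1.

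**Figure D4:**
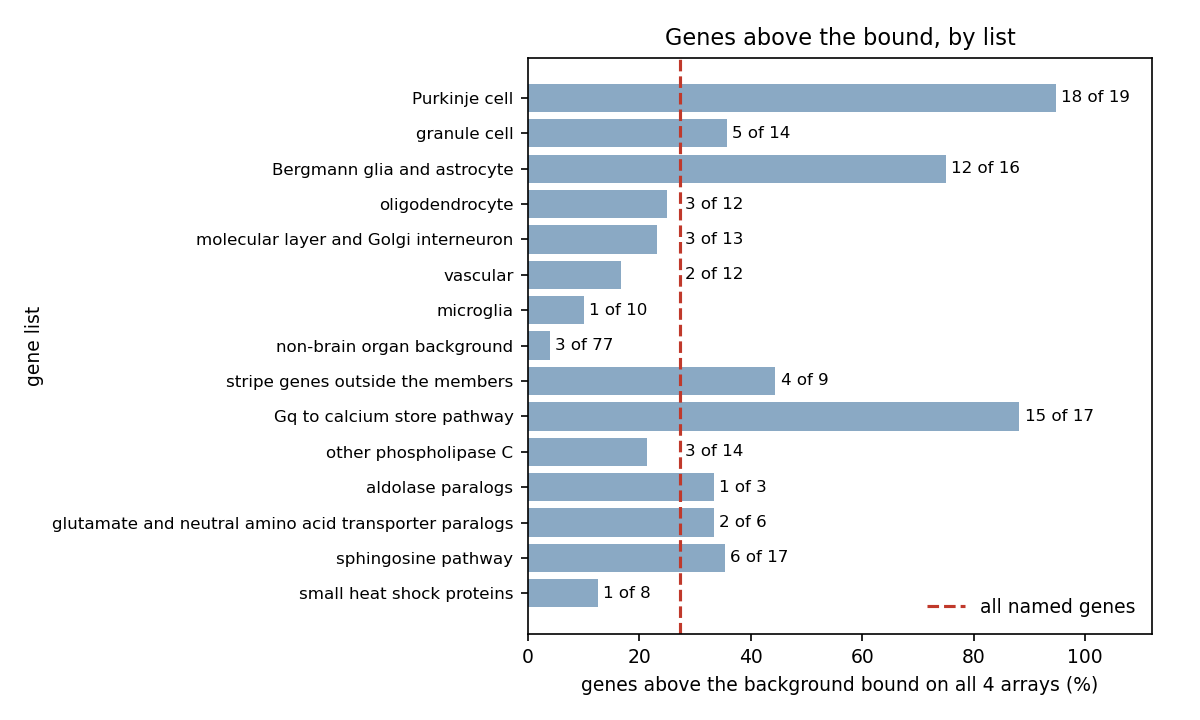
Share of genes above the background bound on all 4 arrays (horizontal axis, percent) for each gene list (vertical axis), with counts beside the bars and a dashed line at 27.2% for all named genes. Purkinje cell markers (18 of 19) and the Gq pathway (15 of 17) reach furthest, and the organ genes that set the bound least (3 of 77). The Purkinje cell and Gq pathway lists share Rgs8, Homer3 and Cacna1g.

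The genes whose normalized values followed each member most closely over the 4 samples were found by the root mean square distance between profiles centred on their own means, among 4942 other genes above the bound on all 4 arrays. Plcb1 had the most distinct profile, with Tmem42 (0.066 on the log2 scale) and Snrpd3 (0.092) nearest and only these 2 within 0.1. Plcb4 was nearest to Csdc2 (0.005) and H2aj (0.012), Slc1a6 to Adk (0.018) and Mtmr7 (0.025), and Plcb3 to Megf9 (0.017) and Polr3k (0.020). Aldoc was nearest to Pfn2 (0.013) and Sod1 (0.014), and Hspb1 to Gnpat (0.024) and Dpy30 (0.033). Between 70 and 337 genes lay within 0.1 of these last 5, so with 4 samples such likeness is common.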

How the data were processed

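RNA of laser-captured Purkinje cells was measured on Affymetrix arrays in 4 samples, 2 from each of 2 mice. Per the submitters' processing notes GCOS was used, and the deposited numbers are linear intensity values for each probe set. The sources used here do not give its version, scaling or detection calls. Per the labels' protocols, about a nanogram of RNA was amplified in 2 cycles.

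Names of probe sets are those of the platform annotation, and 64 control probe sets of 45101 were left out. Signals under 0.1 were raised to 0.1 and log2 was taken of the deposited values. The trimmed means of the arrays differed by 46.6% of their average, above the 5% allowed, so the arrays were quantile normalized in limma 3.58.1 (R 4.3.3). The probe set with the highest mean stood for its gene. The background bound used 77 of 86 listed organ genes, of which 3 passed it on all 4 arrays. The comparison of animals used lmFit and eBayes (trend on, residual degrees of freedom 2) and was tested on simulated data.

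The members and gene lists were chosen with earlier results of these data known. All 19 member probe sets are named. Of each pathway list up to 6 genes above the bound, in order of level, and any called gene are named. Other list genes were named after their values were seen. Likeness names the 2 nearest genes. Alternatives were other bounds, normalizations, filters, probe set choices, an offset of 16, a fit without trend and leaving out each sample.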

Additional observations from a re-analysis of the deposited data

How the results depend on the processing

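The count of member genes above the bound on all arrays was 4 to 6 over the alternatives, and that of member probe sets 7 to 9. On values as deposited 634 probe sets were called between the animals, 3 of them members. The count was 5 with no filter on dim probe sets and 0 without the mean-variance trend, where 1662 had an unadjusted p under 0.05. Leaving out 1 sample gave 1 to 956 calls, 6 without 1-1, 1 without 1-2, 727 without 2-1 and 956 without 2-2, with 0 to 1 member probe sets called. The residual spread then comes from the pair of the other animal alone. Of 79 member differences under 9 alternatives 68 kept their direction and their side of the threshold, 4 became called and 7 turned. As deposited the turned values were 0.40 for Plcb3, 0.41 for Slc1a6, and 0.32 and 0.29 for Hspb1. With arrays scaled to equal trimmed means Aldoc on 1451461_a_at stood at -0.02. Without single samples Aldoc on that probe set ranged from -0.01 to 0.09 and Slc1a6 from -0.21 to 0.12, each turning without sample 2-1. The change of Plcb3 minus Plcb4 between animals was -0.35 as deposited and with scaling to trimmed means. That of Slc1a6 minus Plcb4 was -0.60 to -0.18 over the samples left out. With no filter and with no trend the calls of Zic1, Pcp2, Calb1, Icmt and Plcxd2 were all lost (adjusted p in limma 0.111 to 0.331). Leaving out samples 2-1 or 2-2 kept them. The counts of members without the one that passed in a single animal, and the list calls under each alternative, were added after seeing the data. The cause of these shifts was not tested. No paired analysis was possible because the labels give 1 group. The background bound, not a detection call, limits what can be said of dim probe sets.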
